A study of Mus musculus with 6 samples.

Results

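Adarb1, Adar and Rbfox2, a set of 3 genes for RNA editing and splicing, were described at the gene and transcript level in Th9-polarised CD4+ T cells, among 22400 genes with a count and 12925 genes tested. Adarb1 and Adar encode the catalytically active adenosine deaminases of the ADAR family, and Rbfox2 encodes a splicing regulator. The genes were chosen on the measured contrast between genotypes, so their values in that contrast are given as a description, without a test. WT samples came from Cul5 fl/fl C57BL/6 littermates without Cre, and Cul5 cKO samples from Cul5 fl/fl mice that carried CD4-Cre, which deletes the floxed gene in every cell that has passed the CD4-expressing stage of T cell development, CD8 T cells included. Loxp sites flanked exons 9 to 11 of Cul5, the scaffold of a ubiquitin ligase complex. Naïve CD4+ T cells of mice 8 to 10 weeks old of both genotypes were kept for 48 h under Th9 conditions, with antibodies to CD3 and CD28, IL-4, TGF-β and an antibody that blocks IFN-γ. There were 3 samples per genotype from 1 experiment, and since the labels do not tie each sample to its own animal, the spread between samples may be partly technical.

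ADAR enzymes bind double-stranded RNA and convert adenosine to inosine, which the cell reads as guanosine. ADAR1, the product of Adar, is made as a long p150 form, whose promoter responds to interferon, and a shorter constitutive p110 form, and it keeps cellular double-stranded RNA from being sensed as viral. ADAR2, the product of Adarb1, recodes transcripts of ion channels and receptors in neurons and edits its own pre-mRNA, which creates a splice acceptor and inserts a short frame-shifting stretch into the mature transcript. RBFOX proteins bind GCAUG in introns and promote or repress the neighbouring exon according to which side of it they bind.

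Estimated counts added up to 23111689 to 23454552 in 5 libraries and to 3944803 in WT replicate 3, where 3 counts correspond to 0.759 CPM (counts scaled to a common library size after TMM adjustment) against 0.128 to 0.133 CPM elsewhere. Cul5 itself stood at 64.4, 69.3 and 65.0 CPM in WT replicates 1, 2 and 3 and at 10.6, 14.2 and 13.1 CPM in Cul5 cKO replicates 1, 2 and 3, which is 19.1% of the WT mean. Summed T cell markers were at 1778 to 1972 CPM in WT libraries and 1609 to 1750 CPM in Cul5 cKO, with all 8 markers detected. The 4 Th9 markers (Il9, Irf4, Batf and Spi1) added up to 1117 to 1472 CPM in WT libraries and 1693 to 2493 CPM in Cul5 cKO, and their part in the values of the 3 genes was not tested. The 5 B cell markers added up to 15.1 to 19.2 CPM in WT libraries and 6.47 to 48.0 CPM in Cul5 cKO, highest in replicate 3. The 5 myeloid markers stayed at or under 11 CPM, the 2 CD8 T cell markers at or under 11.6 CPM, the 3 erythroid markers at or under 1.27 CPM, and the NK cell markers at or under 0.253 CPM, with Ncr1 at 0 in every library.

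The transcripts of the ADAR genes differ by short stretches that alter the protein, and 3 of them are shown because the isoform results turn on them. Each was read 5′ to 3′ from the annotated transcript (GENCODE, GRCm38), with the alternative stretch in capitals and 12 bases of the transcript on either side in lower case.
Adarb1 47-base self-editing extension: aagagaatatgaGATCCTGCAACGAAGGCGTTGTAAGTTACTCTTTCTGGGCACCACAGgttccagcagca
Adarb1 30-base deaminase cassette: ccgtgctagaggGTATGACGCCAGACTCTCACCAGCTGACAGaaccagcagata
Adar 78-base long exon 7: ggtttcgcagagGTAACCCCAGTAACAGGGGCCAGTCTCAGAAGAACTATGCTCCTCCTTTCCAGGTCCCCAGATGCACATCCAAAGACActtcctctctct
The extension lies at chr10:77322584-77322630 on the minus strand, and its 47 bases leave a remainder of 2 when divided by 3, so it shifts the reading frame. The cassette at chr10:77312348-77312377, also on the minus strand, has 30 bases and keeps the frame. The longer form of Adar exon 7 adds the 78 bases at chr3:89745524-89745601, on the plus strand, and keeps the frame as well.

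Adarb1 (ENSMUSG00000020262, chr10:77290726-77418270, minus strand) was higher in Cul5 cKO. Its level was 72.6, 87.6 and 78.2 CPM in WT replicates 1, 2 and 3 and 135, 112 and 139 CPM in Cul5 cKO replicates 1, 2 and 3. The lowest Cul5 cKO library stood above the highest WT library, so the groups did not overlap. The means were 79.5 ± 7.55 CPM in WT against 128.7 ± 14.4 CPM in Cul5 cKO (SD, n = 3), and the log2 fold change was 0.69 with an SE of 0.12. This SE and those below came from the spread of log2(CPM + 0.5) between samples, not from the fit that gave the fold change. Per length, Adarb1 was at 18.9, 23.9 and 20.6 TPM (transcript abundance relative to length) in WT and 35.4, 29.4 and 33.6 TPM in Cul5 cKO, again without overlap. The deposited gene table held log2 CPM of 6.30, 6.57 and 6.43 in WT and 7.19, 6.93 and 7.15 in Cul5 cKO, a difference of 0.66 on the log2 scale. The difference kept its direction on all 3 scales and without WT replicate 3, where the ratio of mean CPM was 1.61. Because these were bulk samples, a change in the number of cells that express a gene and a change in its RNA per cell cannot be told apart.

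Adar (ENSMUSG00000027951, chr3:89715022-89753446, plus strand) stood at 139.6, 135.6 and 148.3 CPM in WT replicates 1, 2 and 3 and at 142.7, 127.9 and 121.5 CPM in Cul5 cKO replicates 1, 2 and 3. The groups overlapped, with Cul5 cKO replicate 1 above WT replicates 1 and 2. The means were 141 ± 6.49 CPM in WT against 131 ± 10.9 CPM in Cul5 cKO (SD, n = 3), and the log2 fold change was -0.11 (SE 0.078). In TPM, Adar was at 48.9, 49.4 and 47.5 in WT and 47.4, 48.2 and 41.0 in Cul5 cKO. The deposited log2 CPM differed by -0.08, with overlap.

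Rbfox2 (ENSMUSG00000033565, chr15:77078990-77307004, minus strand) had few reads: 63, 40 and 5 counts in WT replicates 1, 2 and 3 and 87, 81 and 65 counts in Cul5 cKO replicates 1, 2 and 3. This gave 2.69, 1.73 and 1.27 CPM in WT against 3.78, 3.55 and 2.89 CPM in Cul5 cKO. The CPM of the groups did not overlap, with means of 1.90 ± 0.727 and 3.41 ± 0.461 CPM (SD, n = 3) and the log2 fold change 0.76 with an SE of 0.27. At so low a level the added 0.5 CPM makes this SE smaller. Counting error alone gave exact Poisson 95% intervals of 2.07 to 3.44, 1.24 to 2.36 and 0.411 to 2.95 CPM for the WT libraries and of 3.03 to 4.66, 2.82 to 4.41 and 2.23 to 3.68 CPM for the Cul5 cKO libraries. The interval of WT replicate 1 overlapped those of all Cul5 cKO libraries, that of WT replicate 3 those of Cul5 cKO replicates 2 and 3, and that of WT replicate 2 only that of Cul5 cKO replicate 3.

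**Figure D1:**
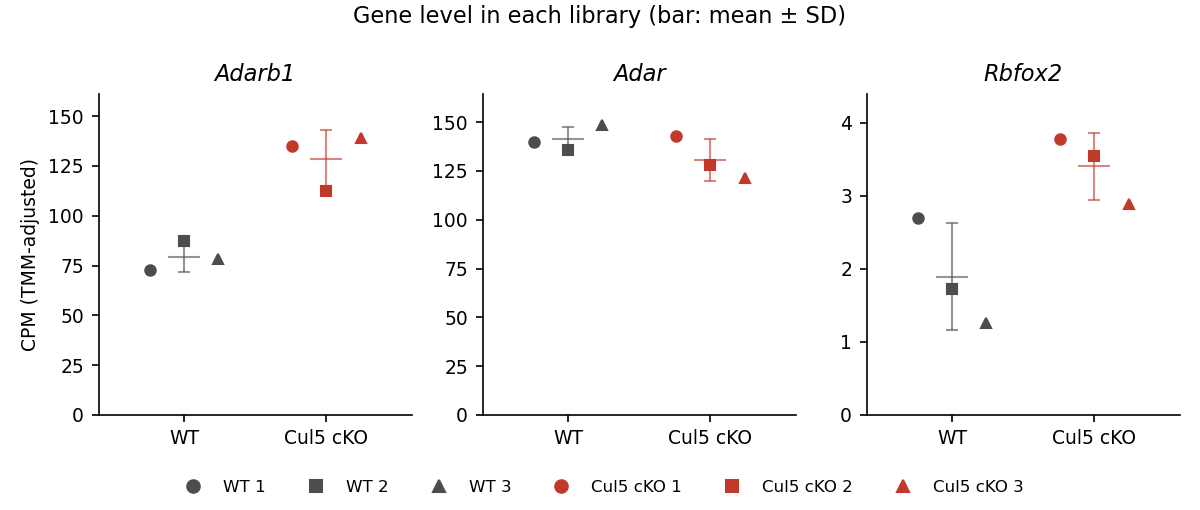
Level of Adarb1, Adar and Rbfox2 in CPM (vertical axes, from 0, one scale per gene) in 3 WT and 3 Cul5 cKO libraries, with symbols for replicates and bars for the mean ± SD. Adarb1 and Rbfox2 lie higher in every Cul5 cKO library than in any WT library, while the Adar values overlap.

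Without overlap in CPM stood 2 of the 3 genes, both higher in Cul5 cKO. Among all 12925 genes tested, 27.5% did not overlap and 14.0% did so with Cul5 cKO higher. As the genes were picked from this contrast, nothing was read from their share. Per length, the order of the levels was the same in both genotypes: Adar led with 48.6 ± 1.01 TPM in WT and 45.5 ± 3.95 TPM in Cul5 cKO, followed by Adarb1 with 21.1 ± 2.53 and 32.8 ± 3.10 TPM and by Rbfox2 with 1.34 ± 0.661 and 1.06 ± 0.198 TPM (SD, n = 3). No library of one gene reached into the range of the next within a genotype. By their mean TPM, the genes stood at percentiles 73.5, 60.1 and 13.5 of the genes tested.

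The annotation holds 13 Adarb1 transcripts, each with some estimated count in at least 1 library. The reads were 50 bases long, and kallisto splits the reads that fit more than 1 transcript. Adarb1-201, Adarb1-202, Adarb1-203, Adarb1-206 and the retained-intron Adarb1-211 had 0 stretches of 31 bases of their own, so their levels are estimates from combinations of features, whose error the files do not state. Adarb1-201 (701 codons), without either stretch, held the most counts, at 23.0, 38.9 and 49.4 CPM in WT against 50.3, 30.8 and 43.7 CPM in Cul5 cKO. Its groups overlapped, and its mean was 1.12 times as high in Cul5 cKO.

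Other transcripts with at least 1 CPM differed between the genotypes to unequal extents. Adarb1-202 (711 codons), which carries the 30-base cassette, was at 12.2, 12.4 and 7.96 CPM in WT against 18.9, 22.4 and 30.9 CPM in Cul5 cKO. Adarb1-203, which carries the 47-base extension and is annotated as a target of nonsense-mediated decay, the pathway that removes messages with an early stop codon, was at 11.1, 9.22 and 9.66 CPM in WT against 25.5, 21.1 and 24.2 CPM in Cul5 cKO. Both stood higher in every Cul5 cKO library, and Adarb1-203 had a mean 2.36 times as high. Adarb1-204, which codes for the same 711 codons behind an additional leader exon, was at 1.69, 0 and 0 CPM in WT against 9.71, 9.13 and 3.19 CPM in Cul5 cKO. Adarb1-205, another transcript annotated for nonsense-mediated decay, was at 14.8, 12.8 and 0 CPM in WT against 15.8, 13.6 and 22.8 CPM in Cul5 cKO. WT replicate 3 was thus at 0 for both, in a library with 309 counts for the whole gene. In the other libraries Adarb1-205 held 11.7% to 20.4% of the gene's counts, and the reason for its 0 was not tested. Adarb1-206, which has the extension and the cassette together, was at 2.03, 4.35 and 0.172 CPM in WT against 0.719, 0.843 and 0.614 CPM in Cul5 cKO, with overlap. Among the retained-intron transcripts, Adarb1-209 was at 4.64, 6.39 and 8.10 CPM in WT against 9.68, 9.98 and 10.1 CPM in Cul5 cKO, and Adarb1-211 at 2.53, 2.82 and 1.90 CPM against 3.43, 3.55 and 3.07 CPM.

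Of 8 Adarb1 transcripts with a mean of at least 1 CPM, 5 did not overlap between the genotypes, all higher in Cul5 cKO (Adarb1-202, Adarb1-203, Adarb1-204, Adarb1-209 and Adarb1-211), set beside 17.5% of 31331 transcripts of that level in all genes. As the gene was picked from this contrast and its sum did not overlap, nothing was read from this count. Of the gene's difference of 49.3 CPM, Adarb1-203 took 27.7%, Adarb1-202 26.7%, Adarb1-205 16.7%, Adarb1-204 13.8% and Adarb1-201 9.07%. The higher level of the gene was therefore spread over transcripts of all annotated classes. The coding transcripts together were at 36.9, 51.3 and 57.4 CPM in WT against 78.9, 62.3 and 77.7 CPM in Cul5 cKO. Those annotated for nonsense-mediated decay were at 28.0, 26.4 and 9.83 CPM in WT against 42.1, 35.6 and 47.6 CPM in Cul5 cKO, and retained-intron transcripts at 7.72, 9.86 and 11 CPM and 14.0, 14.3 and 13.6 CPM. In each class the groups did not overlap, as in the gene's sum, and nothing was read from this either.

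Shares separate a shift in isoforms from the level of the gene. Adarb1-201 held 31.7%, 44.4% and 63.2% of the gene's counts in WT and 37.3%, 27.4% and 31.4% in Cul5 cKO. Its mean share was 14.4 percentage points lower in Cul5 cKO, and 6.04 points lower without WT replicate 3, which had the highest share on the fewest counts. Adarb1-203 was the single transcript of 13 whose shares did not overlap, with 15.3%, 10.5% and 12.3% in WT and 18.9%, 18.8% and 17.4% in Cul5 cKO. How often shares did not overlap among the transcripts of all genes was not computed, so nothing was read from this count. The coding class held 61.0 ± 11.4% of counts in WT and 56.6 ± 1.58% in Cul5 cKO (SD, n = 3), with overlap.

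**Figure D2:**
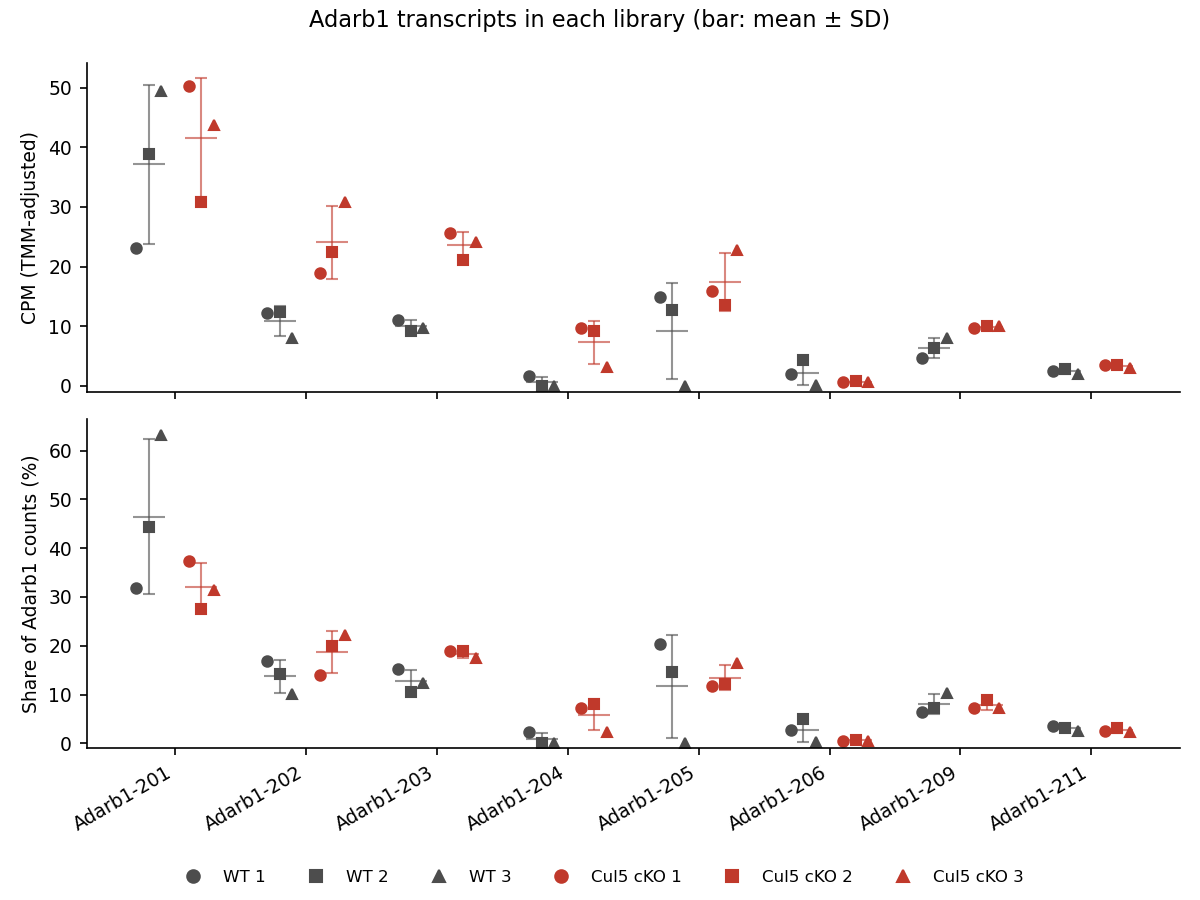
Adarb1 transcripts with a mean of at least 1 CPM, as CPM (upper panel) and as the share of the gene's estimated counts in percent (lower panel), in 3 WT and 3 Cul5 cKO libraries, with bars for the mean ± SD. Adarb1-202, Adarb1-203, Adarb1-204, Adarb1-209 and Adarb1-211 lie higher in every Cul5 cKO library, but only the shares of Adarb1-203 are apart.

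The 47-base extension is the product of ADAR2 editing its own pre-mRNA, and the transcripts that cover the site were split by it. Those with the extension made up 19.5%, 16.8% and 14.3% of their counts in WT replicates 1, 2 and 3 and 21.1%, 21.7% and 19.3% in Cul5 cKO replicates 1, 2 and 3. The ranges met, WT replicate 1 lying above Cul5 cKO replicate 3, and the means were 16.9 ± 2.60% and 20.7 ± 1.24% (SD, n = 3). As shares of TPM the same transcripts were apart, with 18.3%, 15.9% and 13.7% in WT and 20.2%, 20.5% and 18.6% in Cul5 cKO, so whether the groups touched depended on the unit. In level, transcripts with the extension went from a mean of 12.2 to 24.3 CPM (ratio 2.0) and those without it from 60.2 to 93.8 CPM (ratio 1.56). Stretches of 31 bases found only in transcripts with the extension numbered 88, and those found only in transcripts without it 239, wherever in the transcript they lay. The 239 include the 108 found only in Adarb1-204, so not all of them bear on this site. Inosine itself was not measured, since counts per transcript hold no base calls.

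The 30-base cassette sits in the deaminase domain of ADAR2. Transcripts with it made up 24.5%, 21.6% and 12.1% of the counts of transcripts that cover the site in WT and 24.2%, 33.1% and 27.7% in Cul5 cKO. The groups overlapped, and the mean difference of 8.90 percentage points fell to 5.25 points without WT replicate 3. In level, transcripts with the cassette were at 15.9, 16.8 and 8.13 CPM in WT against 29.3, 32.4 and 34.7 CPM in Cul5 cKO, and those without it at 49.0, 60.9 and 59.1 CPM and 91.7, 65.6 and 90.6 CPM. Both forms were thus higher in each Cul5 cKO library. Transcripts with the additional leader exon of Adarb1-204, in the 5′ untranslated region, held 2.33%, 0% and 9.63e-06% in WT and 7.20%, 8.13% and 2.30% in Cul5 cKO, with overlap between WT replicate 1 and Cul5 cKO replicate 3. As shares of TPM they were apart, with 1.88%, 0% and 7.29e-06% in WT and 6.00%, 6.52% and 1.96% in Cul5 cKO.

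Of 9 Adar transcripts, 7 had a count, and 0 of the 5 with a mean of at least 1 CPM stood apart between genotypes. Adar-203, which has the p150 frame of 1178 codons, held the most counts on average, with 72.6, 87.8 and 52.9 CPM in WT against 91.0, 70.2 and 52.5 CPM in Cul5 cKO. Adar-202, which has the p110 frame of 930 codons behind the upstream first exon, was at 32.9, 20.5 and 53.2 CPM in WT against 24.2, 22.5 and 39.7 CPM in Cul5 cKO. Adar-202 was above Adar-203 in WT replicate 3 alone, and in each genotype the library with the lowest level of Adar-203, replicate 3, had the highest level of Adar-202. Adar-201 (1152 codons) was at 22.6, 15.2 and 29.2 CPM in WT against 16.0, 26.0 and 19.7 CPM in Cul5 cKO, and Adar-205 (634 codons) at 8.70, 8.98 and 10.5 CPM and 9.37, 5.66 and 7.46 CPM. Adar-203 held 50.8 ± 14.6% of the gene's counts in WT and 53.9 ± 10.3% in Cul5 cKO (SD, n = 3), a difference that changed sign without WT replicate 3 (-4.43 points) or without Cul5 cKO replicate 1 (-1.79 points).

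The upstream first exon of Adar, which leads to the p110 frame, was used in 24.1%, 15.4% and 36.5% of the counts of coding transcripts in WT and in 17.2%, 18.1% and 33.2% in Cul5 cKO. The remainder began at the internal first exon shared by Adar-201, Adar-203, Adar-204 and Adar-205. WT replicate 3 and Cul5 cKO replicate 3 were highest, and the spread within each genotype exceeded the mean difference of -2.49 points, which turned to 3.08 points without WT replicate 3. Stretches of 31 bases found only with the upstream first exon numbered 128 and those only with the internal one 149, wherever in the transcript they lay. The 78-base longer exon 7, between the RNA-binding and deaminase domains of ADAR1, was in 77.1%, 81.7% and 72.7% of these counts in WT and in 82.0%, 74.5% and 77.2% in Cul5 cKO. The means of 77.2 ± 4.48% and 77.9 ± 3.77% (SD, n = 3) differed by less than the spread, and the annotation ties the longer exon mostly to transcripts with the longer 3′ end (1292 distinguishing stretches with it, 30 without). The 3′ end of Adar overlaps Chrnb2, a nicotinic receptor subunit gene on the opposite strand, which shares 1256 stretches of 31 bases with it, or 21.5% of Adar-203. The study's methods do not state whether the reads kept their strand, and without strand the reads of both genes cannot be told apart there. Counts assigned in a library were 26.9 to 128 for Chrnb2 against 586 to 3287 for Adar.

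**Figure D3:**
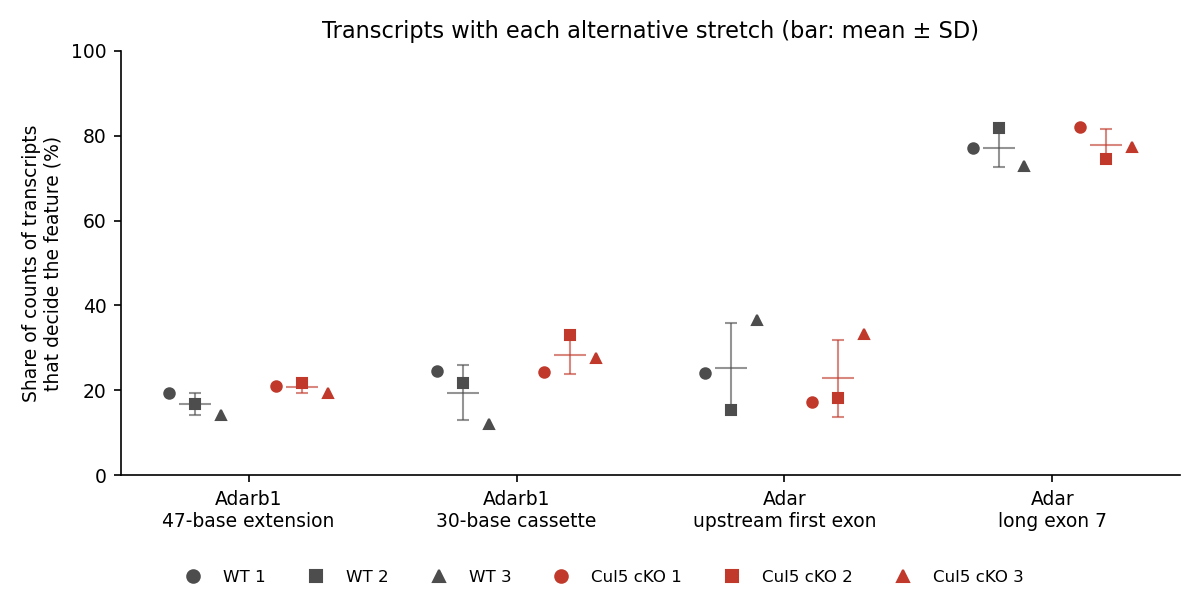
Share in percent of transcripts with the Adarb1 47-base extension, the Adarb1 30-base cassette, the Adar upstream first exon and the Adar longer exon 7, among the counts of transcripts that cover each site, in 3 WT and 3 Cul5 cKO libraries, with bars for the mean ± SD. The groups overlap for each of the 4.

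Rbfox2 had counts on 10 of its 15 transcripts. The gene did not enter the transcript-level fit, which takes only genes with more than 1 transcript past its filter. Rbfox2-203 (381 codons), from the internal start, held most of them, at 2.11, 1.44 and 0 CPM in WT against 2.66, 3.16 and 2.53 CPM in Cul5 cKO. It was the 1 Rbfox2 transcript that averaged 1 CPM or more, and its groups did not overlap. Its share was 78.5%, 83.0% and 0% in WT and 70.5%, 89.1% and 87.7% in Cul5 cKO, a mean difference of 28.6 points that fell to 1.66 points without WT replicate 3. In that library the 5 counts were placed on Rbfox2-202 (66.3%), Rbfox2-205 (13.7%) and Rbfox2-215 (20.0%), with annotated lengths of 3072, 417 and 569 bases, and each of these 3 was at or close to 0 counts in every other library. Rbfox2-209 held 13.5%, 0% and 0% in WT and 9.29%, 7.32% and 12.3% in Cul5 cKO. Transcripts from the upstream first exon (Rbfox2-201, Rbfox2-204 and Rbfox2-214) held 4.64%, 17.0% and 0% of the counts that decide between the starts in WT and 20.3%, 3.59% and 0% in Cul5 cKO. A difference between isoforms of Rbfox2 was not tested.

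The direction of the Rbfox2 difference depended on the unit. In TPM, which divides by length, Rbfox2 was at 1.16, 0.790 and 2.08 in WT and 1.23, 1.11 and 0.848 in Cul5 cKO, with overlap and a mean in Cul5 cKO of 0.793 times that in WT. WT replicate 3, lowest in CPM, was highest in TPM. The mean effective length of the counted transcripts was 3133, 3114 and 779 bases in WT and 4208, 4328 and 4543 bases in Cul5 cKO. Without WT replicate 3, the ratio of mean TPM was 1.09, with overlap, and the ratio of mean CPM 1.54, without overlap. The deposited log2 CPM of 1.07, 0.65 and 0.84 in WT and 2.03, 1.62 and 1.32 in Cul5 cKO did not overlap.

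**Figure D4:**
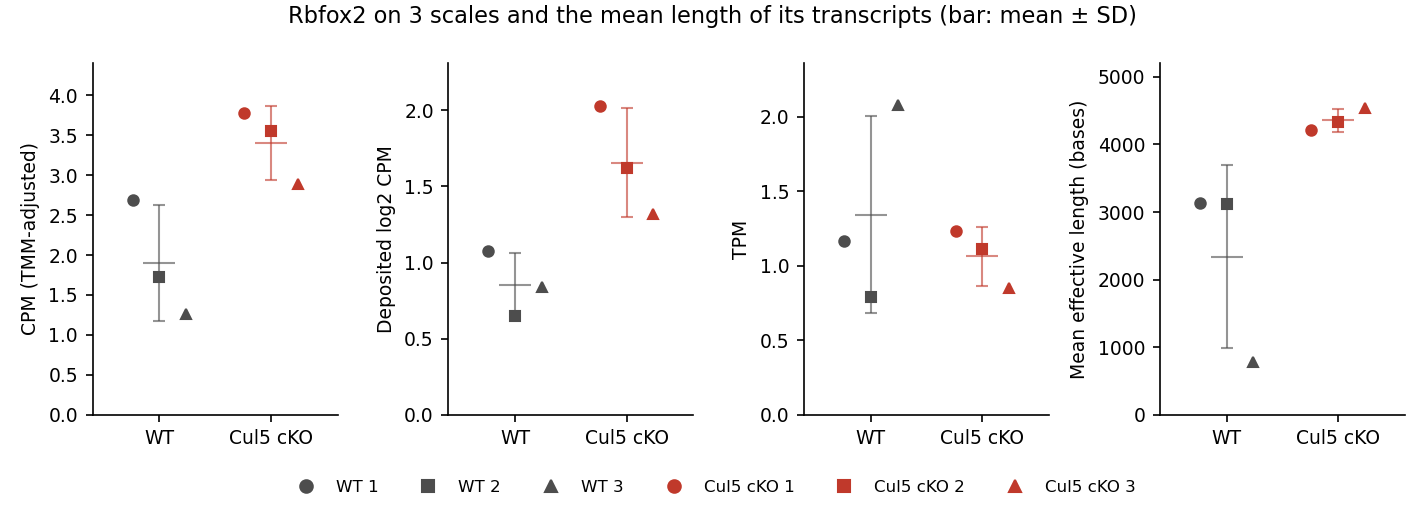
Rbfox2 in CPM, deposited log2 CPM and TPM, and the mean effective length of its counted transcripts in bases, in 3 WT and 3 Cul5 cKO libraries, with bars for the mean ± SD. WT replicate 3 (triangle) is the lowest WT library in CPM, at 1.27, and the highest of all in TPM, at 2.08, with the shortest mean length, at 779 bases.

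The other genes of editing and splicing were taken from 8 lists of 128 genes, of which 101 were tested. Among them 1 was called at an adjusted p under 0.05 by edgeR's quasi-likelihood test, and it was higher in Cul5 cKO, while across all genes 133 were called (1.03%), 79 of them (0.611%) higher in Cul5 cKO. No overlap between genotypes was seen for 25 of the 101 (24.8%), near the 27.5% of all genes tested, and the median log2 fold change was 0.00 against -0.01 for all genes tested. The called gene was Cttn, which encodes cortactin, an actin-binding protein with an exon that RBFOX proteins regulate. It was at 24.6, 27.3 and 25.1 CPM in WT against 38.3, 37.0 and 34.0 CPM in Cul5 cKO, or 0.50 higher on the log2 scale with an SE of 0.067 (adjusted p = 0.0478 in edgeR). The call was lost under 11 of 16 alternatives, among them leaving out any single library.

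Among RNA editing enzymes other than the 2 ADAR genes, 0 of 8 tested were called. Adarb2, a catalytically inactive relative of Adarb1, was at 5.55, 6.23 and 20.2 CPM in WT against 6.30, 6.84 and 8.36 CPM in Cul5 cKO, its highest value coming from WT replicate 3. Adat2, a tRNA adenosine deaminase, was at 9.59 ± 0.239 CPM in WT against 11.9 ± 3.05 CPM in Cul5 cKO (SD, n = 3). Of genes for ADAR partners and handlers, 0 of 8 were called. Aimp2, which was found to promote the turnover of ADAR proteins, was at 56.6, 61.0 and 56.7 CPM in WT against 71.9, 75.0 and 70.7 CPM in Cul5 cKO (log2 fold change 0.32, adjusted p = 0.0708 in edgeR). Aimp2 stood higher in each Cul5 cKO library and missed the threshold, which it passed with DESeq2 (adjusted p = 0.0264) and with the replicate number as a block in edgeR (adjusted p = 0.0300). Of sensors of double-stranded RNA and their effectors, 0 of 11 were called and the median log2 fold change was -0.13. Dhx58, a RIG-I-like receptor, was at 3.07, 3.98 and 5.06 CPM in WT against 2.30, 2.45 and 2.18 CPM in Cul5 cKO (adjusted p = 0.155 in edgeR). Mlkl, the effector of necroptosis, was at 1.77 ± 0.499 and 3.02 ± 0.691 CPM (SD, n = 3).

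Of transcripts with known ADAR recoding sites, 12 of 20 passed the filter and 0 were called. Neil1, a DNA glycosylase whose message is recoded by ADAR1, was at 8.67, 7.53 and 9.62 CPM in WT against 6.60, 5.26 and 6.80 CPM in Cul5 cKO (log2 fold change -0.45, adjusted p = 0.20 in edgeR). Gria3, a glutamate receptor subunit, was at 1.24, 1.38 and 1.52 CPM in WT against 1.48, 4.25 and 1.20 CPM in Cul5 cKO, where 1 library stood out.

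Of the RBFOX family and the LASR complex, which assembles with RBFOX proteins on pre-mRNA, 8 of 10 genes were tested and 0 were called, Rbfox1 and Rbfox3 having stayed below the filter. Hnrnph1 was at 544, 526 and 542 CPM in WT against 492, 476 and 472 CPM in Cul5 cKO (log2 fold change -0.16, adjusted p = 0.146 in edgeR), and Hnrnpc at 467 ± 13.0 and 496 ± 25.5 CPM (SD, n = 3). Among SR proteins, which promote exon inclusion, and their kinases, 0 of 18 were called. Srpk2, a kinase of SR proteins, was at 41.4, 49.5 and 45.3 CPM in WT against 34.5, 35.7 and 35 CPM in Cul5 cKO (log2 fold change -0.37, adjusted p = 0.0894 in edgeR). It was called with DESeq2 (adjusted p = 0.0468) and, in edgeR, with the replicate number as a block (adjusted p = 0.0343), with replicates 2 and 3 alone (adjusted p = 0.0331) and without WT replicate 1 (adjusted p = 0.0474). Clk1, another SR protein kinase, was at 129 ± 25.7 and 95.8 ± 13.7 CPM (SD, n = 3), with overlap, and of 16 alternatives was called only with the replicate block (adjusted p = 0.049986 in edgeR) and with replicates 2 and 3 alone (adjusted p = 0.0429 in edgeR). Of the other splicing regulators, 0 of 26 were called. Rbm20, a splicing repressor of heart muscle, and Khdrbs2, a relative of Sam68, had means under 2 CPM, with 1.35 ± 0.257 against 0.875 ± 0.448 and 1.64 ± 0.129 against 1.32 ± 0.536 CPM (SD, n = 3). Of genes with RBFOX-responsive exons, 1 of 11 was called, namely Cttn. Fn1, the fibronectin gene, was at 1.29 ± 0.335 and 0.862 ± 0.167 CPM (SD, n = 3).

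**Figure D5:**
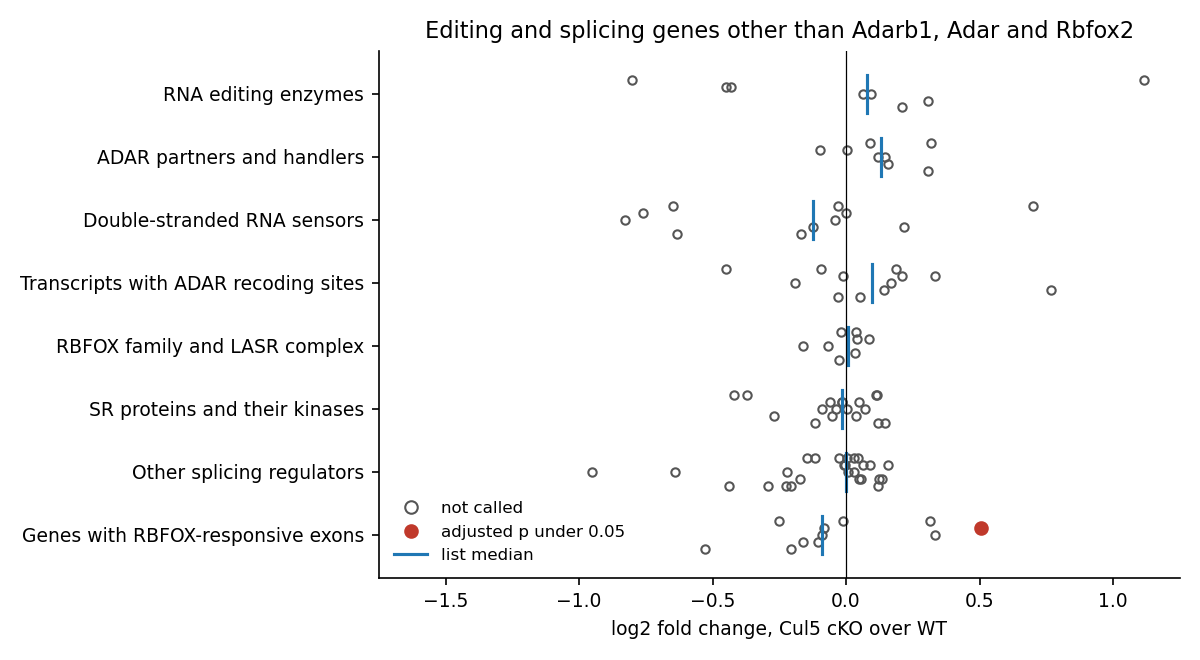
Log2 fold change (Cul5 cKO over WT, horizontal axis) of the genes tested in 8 lists of editing and splicing genes, with a line at each list's median. The 1 filled point is Cttn, at 0.50, and the other genes were not called.

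Transcript usage, the makeup of a gene's transcripts independent of its level, was tested with diffSpliceDGE of edgeR in 8595 genes, of which 61 (0.71%) were called. Among the 84 listed genes that could be tested, 1 was called, Hnrnpk (adjusted p = 0.049 in edgeR, 24 transcripts), which encodes an RNA-binding protein of many splicing and translation complexes. This call was kept under 2 of 11 alternatives, without WT replicate 1 and without WT replicate 2, and lost under the other 9. Its level was 1018, 1031 and 1001 CPM in WT against 978, 1068 and 1069 CPM in Cul5 cKO, with overlap. Cttn had an adjusted p of 1.0 for usage in edgeR, so its call rested on the sum of its transcripts, and a change in their makeup was not detected. Adarb1 with 9 transcripts and Adar with 6 entered the same fit, and no p is given for them.

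The genes whose levels followed each of the 3 most closely over the 6 libraries were found by Pearson's r of log2 CPM among 8693 genes of at least 10 CPM on average, as a description. For Adarb1 these were Ass1 (r = 0.995), Serinc1 (r = 0.994) and Antxr2 (r = 0.990). Ass1, argininosuccinate synthase, had mean levels of 286 CPM (WT) and 417 CPM (Cul5 cKO), and Antxr2, the anthrax toxin receptor of capillary morphogenesis, 30.4 and 59.2 CPM. For Adar these were Rad52, Sec22c and Coq9 (r = 0.995, 0.993 and 0.989), and for Rbfox2 Lpgat1, Psmb4 and Cenpv (r = 0.994, 0.993 and 0.993). The points are 6 libraries of both genotypes and of unequal depth, and a search of this many genes finds high values of r at such a number of points.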

How the data were processed

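RNA of 6 Th9 cultures, 3 WT and 3 Cul5 cKO, was measured as poly-A RNA sequencing with single-end reads of 50 bases. The authors assigned reads to GRCm38 transcripts with kallisto 0.46.2 and deposited, per sample, estimated counts (not normalised) and TPM (relative to length) for 119414 transcripts. The deposited gene table holds log2 CPM normalised by the authors with edgeR 3.34.0. Its columns of fold changes and p-values were not used.

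Transcripts were matched to GENCODE vM21 genes without identifier versions (97.7% matched, with 0.958% to 1.04% of counts left out). Gene sums were rounded, filtered with edgeR's defaults, normalised by TMM and tested with the quasi-likelihood test (edgeR 4.0.16, R 4.3.3) with Benjamini-Hochberg adjustment over 12925 genes. Transcript usage was tested with diffSpliceDGE. Each share of counts was a transcript's count over that of its gene, or over the transcripts that cover a site. DESeq2 1.42.0 and limma 3.58.1 served as alternatives. Python 3.11.15, numpy 2.4.6, pandas 2.3.3, scipy 1.17.1 and matplotlib 3.10.9 served for the rest. The fits were tested on simulated data. Intervals and floors of 3 counts cover counting error only.

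The 3 genes and the lists were chosen with earlier results of these data known. Genes were named by a rule: Cul5, the 3 genes with each transcript over 5% of counts in a library, listed genes called, the 2 tested genes per list of at least 1 CPM with the largest change, and the 3 genes most like each of the 3 genes. Retained-intron transcripts of at least 1 CPM were named beyond that rule, and 1 gene that the rule selects is not reported here. Alternatives were library size alone, a minimum of 10 counts per sample, a minimum of 1 count in all, counts scaled from TPM, limma on log2 values, a replicate block, replicates 2 and 3 alone, and each sample left out.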

Additional observations from a re-analysis of the deposited data

How the results depend on the processing

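The log2 fold change of Adarb1 stayed between 0.59 and 0.79 under 16 alternatives and that of Adar below 0 under all 16. Rbfox2 changed sign where length entered: -0.19 with counts scaled from TPM, -0.15 with limma on log2(TPM + 1) and -0.22 with 0.1 as its pseudocount, and it was 0.62 to 1.11 with a sample left out. It could not be fitted with at least 10 counts in every sample, which WT replicate 3 does not reach. The log2 fold change of the other two ranged from 0.63 to 0.79 (Adarb1) and from -0.17 to -0.06 (Adar) with a sample left out. The lead transcript's share difference was -21.8 to -6.04 points for Adarb1, -4.43 to 10.1 for Adar and 1.66 to 43.2 for Rbfox2 with a sample left out, and for Adar -1.19 with replicates 2 and 3 alone. The Adar upstream first exon's difference was -7.70 to 3.08 with a sample left out (3.08 without WT replicate 3, 0.33 without Cul5 cKO replicate 1), and that of the longer exon 7 was -1.36 with replicates 2 and 3 alone and -1.52 to 2.96 with a sample left out (-1.52 without WT replicate 3, -1.33 without Cul5 cKO replicate 1). These site shares were recomputed after the data had been seen, and the 2 Adarb1 sites kept their direction (2.54 to 5.14 and 5.25 to 11.5 points).

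The number of genes called, 133, became 693 with DESeq2, 228 with no filter beyond 1 count, 61 with counts scaled from TPM, 41 with limma on the deposited log2 CPM, 27 with limma on log2(TPM + 1), 30 with a pseudocount of 0.1, 1153 with replicates 2 and 3 alone and 2 to 316 with a sample left out (2 without WT replicate 2 or WT replicate 3, 3 without Cul5 cKO replicate 3). Of listed genes, 5 were called with DESeq2, 6 with replicates 2 and 3 alone, 0 with library size alone, counts scaled from TPM or limma, and 0 to 1 with a sample left out. Without WT replicate 1 the listed gene called was Srpk2. Transcript usage gave 6 genes with limma, 0 with at least 10 counts in every sample, 135 with no filter beyond 1 count and 27 to 188 with a sample left out. The cause of these changes was not tested.

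With the replicate number as a block, 848 genes and 6 listed genes were called at the gene level and 26 for usage. Deviations of samples of the same number correlated with r = 0.496, 0.271 and 0.037. WT replicate 1 had r = -0.367 and -0.261 with the other numbers, while WT replicates 2 and 3 correlated more with another number (0.298 and 0.168). The labels state no pairing, and the main fit used genotype alone. Whether samples of the same number shared a batch or origin was not tested.

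Single genes whose gene-level fold change changed sign, none of them called at the gene level, were Adarb2 (-0.77 to 0.28 with a sample left out, 0.28 without WT replicate 3), Gria3 (-0.013 to 1.08 with a sample left out), Hnrnpk (-0.013 with library size alone, -0.31 with counts scaled from TPM, -0.42, -0.32 and -0.32 with limma on the deposited and the 2 TPM scales) and Khdrbs2 (0.58, 0.79, 0.64 and 0.81 with the same 4 in that order). Depth limits the split of Rbfox2 into isoforms, its gene level in WT replicate 3, which rests on 5 counts, and every share in that library.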
